A study of Danio rerio with 16 samples.

Results

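The claudin genes were taken as every row of the gene list whose symbol starts with cldn, which gave 32 of 21301 genes. Their transcripts were followed in 130661 single cells of zebrafish tails, dissected at the 10 to 12 somite stage behind the last somite formed. There were 4 groups of 4 libraries: wild type (WT), BMP inhibition with DMH1, FGF inhibition with SU5402, and Wnt inhibition labelled notum-1. The sample titles do not say whether WT was untreated or given a vehicle. Each library was a pool of 10 tails, or of 12 for notum-1. The sources used here do not give the strain, the doses, the times of treatment or the way notum-1 was delivered. The series' design calls the libraries of a group biological replicates.

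Claudins are small membrane proteins that form the strands of tight junctions, the belts that seal neighbouring epithelial cells to each other. Some claudins tighten the seal and others form pores for ions or water, so the set that a cell makes shapes what can pass between cells. Fish have many more claudin genes than mammals, several of them named by letters, and use them in the skin, kidney ducts, gut, neural tube lining and vessels. The rule also takes in cldnd1a and cldnd1b, whose products carry a claudin domain.

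The libraries held 4649 to 14162 cells and 12398958 to 76488460 unique molecular identifiers (UMIs, each marking a captured transcript). The claudins gave 666017 UMIs, of which 198567 were in WT. The authors had assigned each cell to 1 of 25 classes, whose names are used as given; the labels do not spell out EVL. In WT, 8 of 9 EVL markers were higher in the EVL class than in every other class, 6 of 7 blood and endothelial markers led in lateral plate mesoderm (lmo2), and 6 of 8 notochord markers in the anterior notochord exceeded every class outside the notochord. Of 6 pronephros markers, 4 were higher in lateral plate mesoderm (pax2) than in every class but the intermediate mesoderm, while pax8 had no UMI in the WT pax2 class. Of 9 epidermis markers only 2 in epidermis 1 exceeded every class outside the epidermis, and krt94 had no UMI there in WT. Barcodes found in more than 1 library numbered 2107, at most 0.514% of a pair of libraries. The treatment of doublets is not stated.

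Levels in WT are CPM, the UMIs of a gene scaled to a common total of UMIs per library and class, as mean ± SD over 4 libraries unless said otherwise. The method reads transcript 3′ ends, so no length scale enters. The classes were formed from genes of the same cells, so levels across classes are a description with no test. Of the 32 claudins, 20 reached a mean of 10 CPM in at least 1 WT class and 15 reached 50 CPM. The other 12 stayed below 10 CPM in every class, and 4 of these had no UMI in WT.

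**Figure D1:**
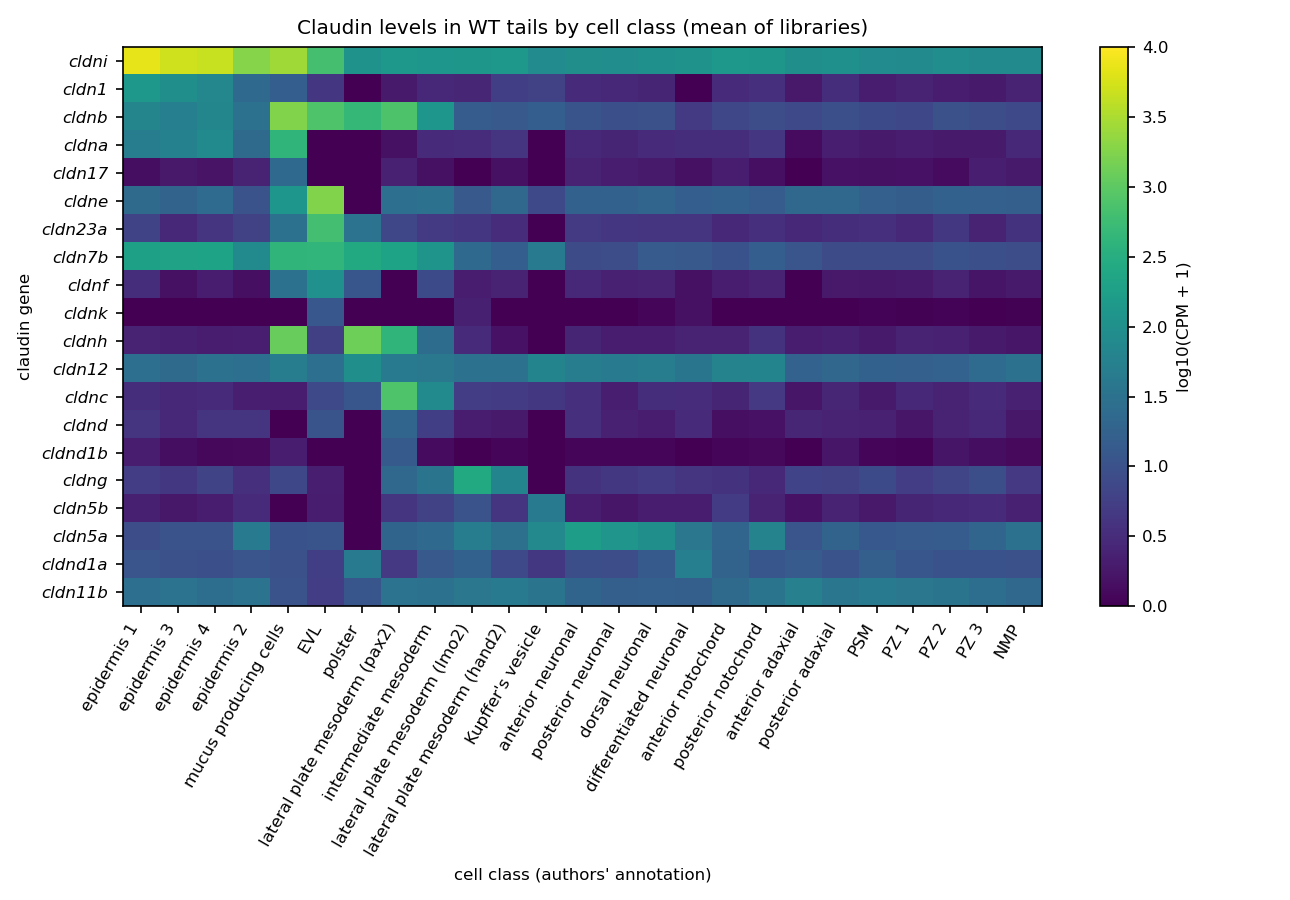
Mean level of the 20 claudins with at least 10 CPM in a WT class. Rows are genes, columns are the 25 cell classes and colour is log10(CPM + 1) of the mean over WT libraries. cldni fills the epidermis columns, with 7044 CPM in epidermis 1, while cldnc, cldng and cldn5a each peak in a different internal tissue.

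A single gene, cldni, held 76.4% of all claudin UMIs in WT. It was highest in epidermis 1, with 5757, 6473, 7379 and 8566 CPM in the 4 libraries and a mean of 7044 ± 1213. Epidermis 3 held 5165 ± 381 CPM, epidermis 4 held 4587 ± 392, the mucus producing cells 2663 ± 304 and epidermis 2 held 1852 ± 331. Each library kept epidermis 1 above epidermis 3, epidermis 3 above epidermis 4, and epidermis 2 below all of them, although the ranges of epidermis 3 and 4 overlapped. In epidermis 1, cldni made up 92.7% of the summed claudin level.

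cldn1, whose mouse counterpart is needed for the water barrier of the skin, followed the same order over the 4 epidermis classes at a far lower level. It read 115.7, 141.2, 129.2 and 148.6 CPM in epidermis 1, then 96.5 ± 13.7 in epidermis 3, 70.5 ± 6.80 in epidermis 4 and 22.5 ± 6.85 in epidermis 2. Over the 25 class means, cldni was the claudin with the profile closest to that of cldn1 (Pearson r of log2(CPM + 1) 0.93). Such r values describe classes that share libraries and free RNA.
cldn7b, a claudin of many epithelia, was spread more evenly over the skin. It stood at 208 ± 20.8 CPM in epidermis 4, 204 ± 19.8 in epidermis 3 and 190 ± 25.0 in epidermis 1, which overlapped, and at 348.9, 429.9, 397.2 and 448.8 CPM in the mucus producing cells, above every epidermis library. Its highest mean was in the EVL, with 213.2, 758.2, 378.5 and 364.9 CPM, a range that spans that of the mucus producing cells.

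The mucus producing cells, a class of 11 to 65 cells per WT library, expressed a mixture of claudins. None of 6 ionocyte markers was at 0 in this class in WT, and their levels in other classes were not compared. Here 11 claudins reached 10 CPM and 6 reached 100 CPM, beside 12 and 5 in the pax2 class and 10 and 6 in the EVL. cldnb stood at 1622, 1796, 1711 and 1913 CPM, above its level in every other class. cldnh stood at 1099, 835, 1174 and 1520 CPM, and cldna at 139.5, 505.8, 648.3 and 350.4 CPM. The cldna values were spread widely, with the library MG1 lowest. cldn17 was highest in this class too, at 22.4 ± 10.0 CPM on 9 UMIs.
With cells thinned to 2000 UMIs each, WT mucus producing cells carried UMIs of 4.39 different claudins on average, and 93.9% carried 3 or more. That share was 54.7% in the EVL, 53.8% in the pax2 class, 25.0% in epidermis 1 and 0.452% in the presomitic mesoderm (PSM).

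The EVL class had a set of its own, led by cldne at 573, 2275, 2176 and 1952 CPM. cldn23a read 173.3, 866.6, 728.6 and 801.9 CPM there, and cldnf 39.98, 108.3, 137.2 and 131.5 CPM. In each of these genes the library MG1, with 13 EVL cells, was the lowest, and the library MG2 held only 7 EVL cells. cldn23a and cldnf had each other as the claudin of closest profile (r 0.90). cldnb was also present at 780 ± 433 CPM, whereas cldnh read 4.73 ± 9.46 and cldna had no UMI in 549762, which allows up to 5.46 CPM. cldnk passed 10 CPM in the EVL only, where its 11.1 ± 19.4 CPM rested on 4 UMIs and mostly on MG1 at 39.98 CPM.

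In the pax2 class, cldnc led with 901.6, 711.4, 777.2 and 750.8 CPM. The intermediate mesoderm held 80.2 ± 14.3 CPM of it and the polster 1 UMI, while all other classes were lower, so that 53.6% of its WT UMIs lay in the pax2 class and 29.2% in the intermediate mesoderm. cldnb stood beside it at 817.2, 773.7, 795.5 and 663.1 CPM, and cldnh at 522.0, 420.6, 311.6 and 370.1 CPM. The weaker cldnd, at 19.4 ± 16.6 CPM, and cldnd1b, at 12.5 ± 9.46 CPM, were also highest there, each with 1 library at 0.
At 2000 UMIs per cell, 67.0% of 273 WT pax2 cells had a cldnc UMI, with libraries from 64.6% to 74.3%, against 0.271% of PSM cells. Of the 183 cells with a cldnc UMI, 47.0% also had a cldnh UMI, against 17.8% of the 90 without. For cldnb these shares were 73.8% and 38.9%.

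Apart from cldni, other internal tissues were led by other claudins. cldng read 314.7, 233.6, 252.3 and 253.9 CPM in the lmo2 class, which held 61.9% of its WT UMIs, and 62.0 ± 12.9 CPM in lateral plate mesoderm (hand2). cldn5a, which in zebrafish seals the lining of the brain ventricles, read 157.4, 169.4, 164.5 and 167.7 CPM in the anterior neuronal class. Its posterior neuronal level of 122 ± 11.5 CPM lay wholly below the anterior one, and overlapped with the dorsal neuronal level of 97.3 ± 12.2. cldnd1a was highest in differentiated neuronal cells, at 53.96, 46.28, 58.95 and 50.24 CPM.

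cldn5b, known from endothelium, was weak in the tail. In WT it was highest in Kupffer's vesicle, the ciliated organ of left-right asymmetry, at 45.8 ± 23.7 CPM on 8 UMIs from 40 cells. The lmo2 class followed with 9.64 ± 3.19 CPM, the intermediate mesoderm with 4.86 ± 1.82 and the anterior notochord with 4.09 ± 2.22.
cldn12 and cldn11b were broad. cldn12 read 49.76, 66.42, 70.31 and 68.89 CPM in the posterior notochord and 60.02 ± 7.75 in the anterior notochord, which overlapped. Its highest class, the polster at 97.8 ± 14.3 CPM over 2 libraries, was 3.20 times the median class. cldn11b read 56.75, 54.37, 56.97 and 46.44 CPM in the anterior adaxial cells, the precursors of slow muscle, with the PSM next at 45.5 ± 2.64, and its highest class was 1.71 times the median class. The polster, which holds 9 WT cells, had 1531 and 1096 CPM of cldnh.

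Of the 12 claudins below 10 CPM in every WT class, cldn15a had 125 UMIs in WT, cldn23b 38, cldn15b 18, cldn10b 16, cldn15la 6, cldn15lb 5, and cldn10a and cldnj 3 each. cldn7a, cldn2, cldn19 and cldn11a had none, which allows up to 0.0194 CPM over all WT cells. Such limits take 3 counts as the ceiling of a count of 0 and cover counting error only.

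Some of the letter-named claudins are genomic neighbours. By name, 31 of the 32 were found in RefSeq's gene table, which is of another assembly than the files and was used for names and gene order only. cldnj, cldne, cldnf and cldna lie close together, as do cldnh, cldnc, cldnb and cldnd. Among the 20 claudins at 10 CPM, 8 pairs lay within 3 genes of each other, with a median r of class profiles of 0.54, against 0.064 over all 190 pairs. The near pair with the closest profiles was cldnb and cldnh (r 0.81), while cldna and cldne had r 0.18. Reads shared between such alike genes could be split, and how the counting handled them is not stated.

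A low level of cldni was found in all classes. Outside the epidermis, mucus producing and EVL classes its WT mean ran from 77.4 to 136 CPM. In the WT PSM it stood at 85.2 ± 16.8 CPM, or 1.24% ± 0.350 of its level in epidermis 1. At 2000 UMIs per cell, 16.0% of PSM cells had a cldni UMI, against 100% of epidermis 1 cells; without thinning, the PSM share was 31.4%, at median depths of 4259 and 3082 UMIs. By the same measure 7 epidermis markers stood in the PSM at 3.11% to 22.2% of their epidermis 1 level, and 8 EVL markers at 0.441% to 1.17% of their EVL level. Free RNA and low expression were not told apart, and no expression in the PSM is read from the cldni level. Its mean there was lower in the treated groups, at 13.9 ± 4.31 CPM with DMH1, 43.6 ± 28.2 with SU5402 and 17.9 ± 5.58 with notum-1.

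The treatments were compared with WT to ask how claudin levels differ when BMP, FGF or Wnt signalling is inhibited. Values from here on are CPM scaled by TMM factors, which correct library totals for composition, and are called scaled CPM. Tests are edgeR quasi-likelihood tests over all genes with Benjamini-Hochberg adjustment. A gene is called at an adjusted p under 0.05. Changes are log2 fold changes ± SE with 4 libraries per group, or fewer where said. In sums of all cells, fewer cells of a type and less RNA per cell cannot be told apart. Each claudin was therefore also tested in its main class, the one with its highest mean over all 16 libraries among classes with at least 20 cells in 3 libraries of each group. That choice includes treated libraries. Among the classes within the cell limit, this bears on 4 genes whose main class is not the one where WT was highest. For cldn5b and cldn15a both the class and the 10 CPM limit were reached through treated libraries alone, so their class values are given as a description with no test. cldnd1b passed the filter on low counts in its main class with the help of treated libraries and is given there in the same way. For cldn11b and cldn12 another tested class was higher in WT, and both are read there too. The values of cldn11b in the PSM, its main class, are therefore also given as a description with no test. The EVL, mucus producing cells, Kupffer's vesicle and polster fell short of the cell limit. cldne, cldn7b, cldna, cldnb, cldnh, cldn12 and cldn5b were highest in WT in these, so their main classes are others. For cldne the main class is the intermediate mesoderm, at 31.5 CPM in WT.

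In all cells, 22 of the 32 claudins passed the filter on low counts. DMH1 called 5, of which 2 were higher and 3 lower, where 42.4% of all genes were called. SU5402 called 4 (1 up, 3 down; 42.6% of all genes) and notum-1 called 5 (1 up, 4 down; 38.1%). In the main classes 17 claudins reached 10 CPM and 16 were tested, cldnd failing the filter. There DMH1 called 5 (3 up, 2 down; 40.6% of all genes under the same rule), SU5402 called 6 (3 up, 3 down; 44.1%) and notum-1 called 2 (1 up, 1 down; 29.4%). These main-class counts include cldn5b, cldn15a, cldnd1b and cldn11b and are no support for any of them. The share called was 22.7%, 18.2% and 22.7% of the claudins tested in all cells and 31.2%, 37.5% and 12.5% in the main classes. The median change of the tested claudins in all cells was 0.16, 0.07 and -0.30 in DMH1, SU5402 and notum-1, against 0.06, 0.11 and 0.03 over all genes. The treatments share the WT libraries, so their values are given side by side and are not repeats of each other.
Without TMM factors the median of all genes shifted to 0.20, 0.34 and -0.37 in all cells. In the main classes it then stood at 0.07, 0.16 and -0.41. That median covers 6000 genes against 8771 with TMM factors, since only classes that were main for a claudin were run. The all-cell calls then split into 3 higher and 1 lower for DMH1, 3 and 1 for SU5402, 0 and 7 for notum-1. With the class makeup fixed at the WT shares they split into 0 and 3, 2 and 3, and 0 and 11. Main-class calls without TMM factors split into 2 and 2, 4 and 2, and 1 and 8. With main classes chosen from WT alone, an alternative added after seeing the data, 14 claudins were tested and the calls split into 1 and 2, 1 and 3, and 0 and 1. The higher call for DMH1 was cldnd1b and is no support for it.

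**Figure D2:**
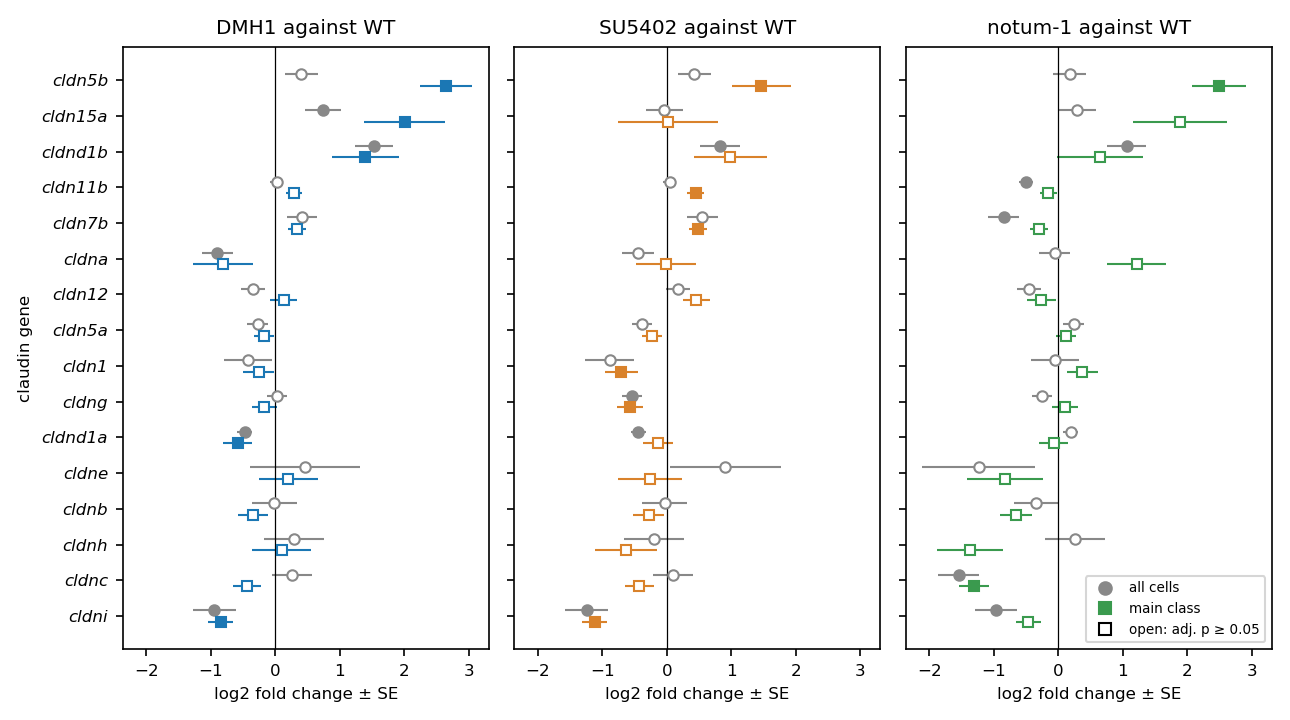
Log2 fold change against WT of the 16 claudins tested in their main class, with n of 4 libraries per group. Grey circles are sums over all cells, coloured squares are sums within the main class, bars are standard errors and filled symbols have an adjusted p under 0.05. The filled main-class squares of cldn5b, cldn15a, cldnd1b and cldn11b are not read as tests. cldni lies left of 0 in all 3 panels, from -0.47 to -1.24, and cldn5b in its main class, a class chosen through treated libraries, lies right of 0, from 1.47 to 2.65.

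cldni fell in the epidermis. In epidermis 1 the WT libraries read 5240, 6013, 6811 and 7763 scaled CPM. The DMH1 libraries read 3561, 3380, 3443 and 4027, and the SU5402 libraries 2531, 3366, 2595 and 3427, all below WT. The change was -0.84 ± 0.19 in DMH1 (adjusted p 0.00248) and -1.12 ± 0.19 in SU5402 (adjusted p 0.00018). The notum-1 libraries, at 4263, 3290, 5298 and 5830, overlapped with WT and did not pass (-0.47 ± 0.19, adjusted p 0.0700). In this class 32.1%, 35.3% and 29.9% of all genes were called under DMH1, SU5402 and notum-1.
The other epidermis classes were read for cldni after seeing the data. Under notum-1 it fell there by 1.101 ± 0.21 on the log2 scale in epidermis 2 (adjusted p 0.000525), by 1.05 ± 0.19 in epidermis 3 (adjusted p 0.000298) and by 1.41 ± 0.27 in epidermis 4 (adjusted p 0.000583). The DMH1 changes were -0.92, -0.90 and -0.77 and the SU5402 changes -0.97, -1.12 and -1.22 in the same order, all called. In each of these 3 classes every treated library in the fit lay below every WT library. The epidermis 2 fit left out the notum-1 library WNT_DJ2, whose 8 cells there were under the limit of 20. In these classes 36.3%, 38.1% and 33.3% of genes were called in DMH1, 39.5%, 40.3% and 35.7% in SU5402 and 17.1%, 28.6% and 31.4% in notum-1. The DMH1 call in epidermis 4 was lost without MG2, DJ1, DJ2, DMH0, DMH2 or DMH3 in turn (-0.71 to -0.90).

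Over all cells cldni went from 684, 724, 1118 and 1228 scaled CPM in WT to 502, 531, 416 and 507 with DMH1 (-0.94 ± 0.33, adjusted p 0.0292). SU5402 libraries stood at 399, 506, 351 and 331 (-1.24 ± 0.33, adjusted p 0.00629). Those of notum-1 stood at 421, 165, 596 and 743 (-0.96 ± 0.33, adjusted p 0.0292). DMH1 and SU5402 lay wholly below WT, while notum-1 overlapped with it. The DMH1 call was lost without DJ1, DJ2, DMH0, DMH3 or DMH4 (-0.78 to -1.06) or TMM factors, and the notum-1 call without DJ1, DJ2 or WNT_MG1 (-0.68 to -1.25), with the same cell limits for all libraries (at most 3% mitochondrial reads and at least 1500 genes per cell), or with only WT and notum-1 in the fit. WT and notum-1 libraries carry the name parts MG and DJ, whose meaning the labels leave unsaid. The lower pair of WT values is MG and the higher pair DJ, and in each the notum-1 libraries lay below WT, at 421 and 165 for MG and at 596 and 743 for DJ. DMH1 and SU5402 libraries have no such name part.

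Other values of epidermis 1 are given beside this fall. The 9 epidermis markers summed to 1651 to 2335 scaled CPM in WT, 2592 to 2827 with DMH1, 2392 to 2995 with SU5402 and 2046 to 3626 with notum-1. The 9 EVL markers summed there to 4668 ± 1484, 5423 ± 222, 5058 ± 636 and 5830 ± 2106. The class made up 6.54% ± 2.58 of WT cells, 7.65% ± 1.25 with DMH1, 7.06% ± 1.21 with SU5402 and 6.99% ± 2.78 with notum-1 (two-sided exact permutation p 0.486, 0.743 and 0.914). The WT share was split by name part, at 4.21% and 4.41% in MG1 and MG2 and 8.86% and 8.69% in DJ1 and DJ2. With WT spread so widely, these tests could miss a difference. cldni over all cells was also lower in the MG pair of WT, and the part of the share in that was not tested. The cldni level of the PSM was lower in treated groups too, and its part in the result was not tested; it amounted to 1.24% of the epidermis 1 level in WT.

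cldn1 in epidermis 1 was lower in SU5402, at 46.4, 64.2, 70.6 and 114 scaled CPM against 105, 131, 119 and 135 in WT, groups that overlapped (-0.70 ± 0.25, adjusted p 0.0340). That call was lost without MG2, DJ1, DJ2, SU1, SU2 or SU3 (-0.56 to -0.98), without the filter, or with the same cell limits. Under notum-1 cldn1 read 157, 78.5, 211 and 178 and did not pass (0.37 ± 0.25, adjusted p 0.261).
cldn7b went up in epidermis 4 under SU5402, from 164, 193, 201 and 210 scaled CPM to 288, 227, 295 and 267, with no overlap (0.49 ± 0.14, adjusted p 0.0111; lost without MG1 or without the filter). In the other epidermis classes, read after seeing the data and not under the alternatives, its SU5402 change was 0.58 ± 0.17 in epidermis 1 (adjusted p 0.0114), 0.56 ± 0.20 in epidermis 2 (adjusted p 0.0300) and 0.51 ± 0.14 in epidermis 3 (adjusted p 0.00572). Under notum-1 it fell in epidermis 1 (-0.59 ± 0.17, adjusted p 0.0134) and epidermis 3 (-0.51 ± 0.14, adjusted p 0.0111), and did not pass in epidermis 4 (-0.30 ± 0.15, adjusted p 0.117). Over all cells the notum-1 libraries read 26.6, 15.4, 26.9 and 33.7 against 34.7, 35.9, 55.4 and 58.8 in WT (-0.85 ± 0.24, adjusted p 0.0119), with no overlap; the call was lost with the same cell limits.
cldna fell over all cells in DMH1, from 7.24, 9.07, 12.9 and 18.4 to 8.81, 6.45, 5.65 and 4.70 scaled CPM (-0.90 ± 0.24, adjusted p 0.00753). The groups overlapped, and leaving out single libraries gave -0.60 to -1.09, all called. In epidermis 4, its main class, the DMH1 change was -0.81 ± 0.46 (adjusted p 0.190), and notum-1 libraries were split, at 135, 272, 255 and 40.5 against 56.0, 54.3, 60.1 and 121 in WT (1.21 ± 0.46, adjusted p 0.0577).

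**Figure D3:**
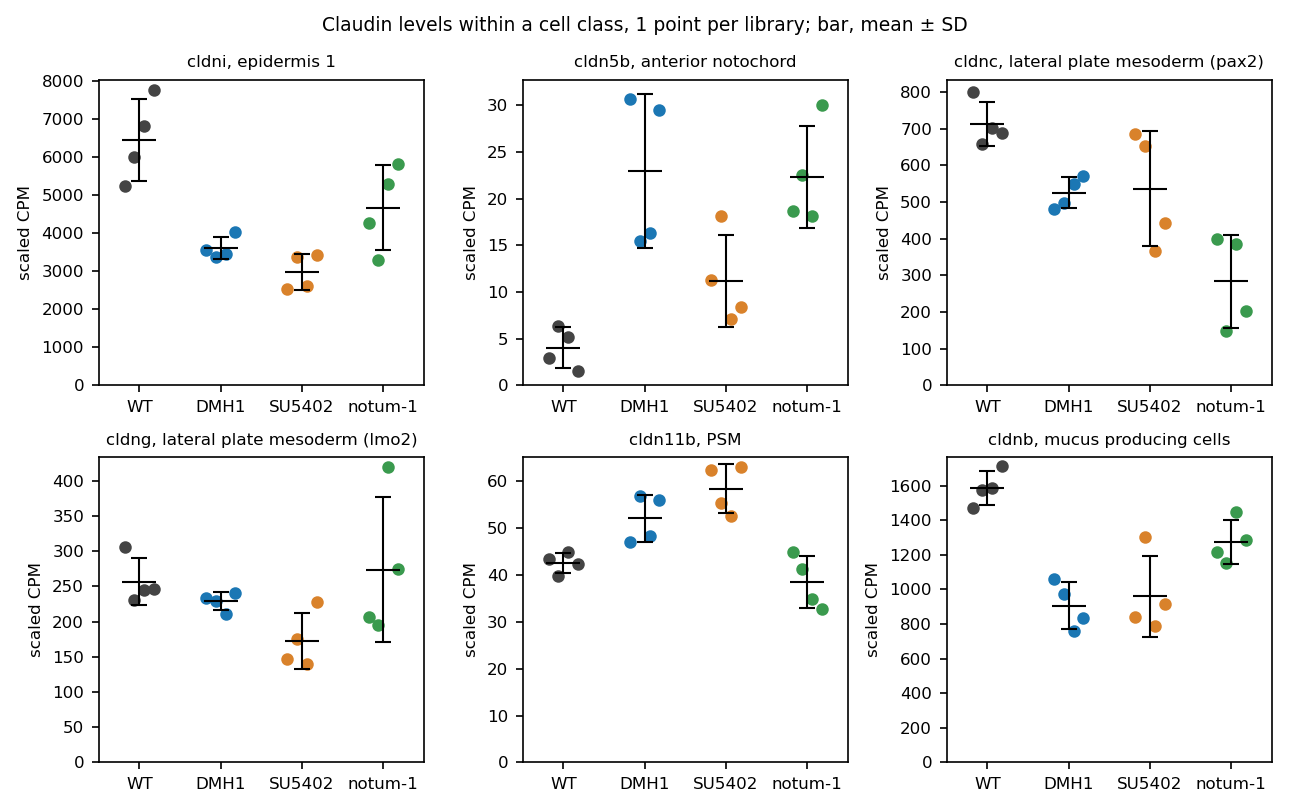
Scaled CPM of 6 claudins within a cell class. Each point is 1 library, the long bar is the group mean and the whiskers are 1 SD. cldni in epidermis 1 sits at 5240 to 7763 in WT and at 2531 to 4027 in DMH1 and SU5402, and cldn5b in the anterior notochord sits at 1.48 to 6.36 in WT and above that in every treated library.

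cldn5b was higher in the anterior notochord of every treated library than in WT. WT libraries read 2.94, 6.36, 5.19 and 1.48 scaled CPM on 15 UMIs in all. DMH1 libraries read 30.7, 15.4, 16.3 and 29.5 on 198 UMIs, notum-1 libraries 18.6, 22.5, 18.1 and 29.99 on 122 UMIs, and SU5402 libraries 11.3, 18.1, 7.05 and 8.37 on 59 UMIs. The difference from WT was 2.65 ± 0.40 on the log2 scale for DMH1, 2.49 ± 0.42 for notum-1 and 1.47 ± 0.46 for SU5402, and the last was 0.61 with the same cell limits for all libraries. Since the high groups chose this class, no test is given.
At 2000 UMIs per cell, 0.552% of WT anterior notochord cells had a cldn5b UMI, against 4.38% with DMH1, 1.81% with SU5402 and 2.95% with notum-1. In the PSM the shares were 0.181%, 0.123%, 0.239% and 0.0763%. Without thinning, the notochord shares were 1.89%, 11.5%, 4.07% and 6.99%, at median depths of 5280, 9166, 4136 and 6323 UMIs.
In the posterior notochord cldn5b stood at 1.43 ± 2.28 scaled CPM in WT and at 1.85 ± 0.691, 1.38 ± 0.953 and 1.37 ± 0.489 in DMH1, SU5402 and notum-1, and was not tested. In the lmo2 class it stood at 9.38 ± 3.06 in WT and 8.20 ± 2.09 in DMH1 (-0.21 ± 0.39, adjusted p 0.706). Over all cells its changes of 0.40 ± 0.25, 0.43 ± 0.26 and 0.18 ± 0.26 in DMH1, SU5402 and notum-1 did not pass (adjusted p 0.207, 0.190 and 0.609).
Markers of other cell types in the anterior notochord are given beside these values. The 7 blood and endothelial markers summed to 45.8 to 89.3 scaled CPM in WT, 17.9 to 37.4 with DMH1, 10.7 to 144 with SU5402 and 6.43 to 79.7 with notum-1, where cdh5 was at 0. The 8 Kupffer's vesicle markers summed to 9.64 to 20.6, 10.9 to 15.3, 14.0 to 17.1 and 6.43 to 17.8 in the same order, with dnah9 at 0 in every group and tekt1 in WT. The 8 notochord markers summed to 7804 to 9732, 5827 to 6478, 5564 to 7501 and 4915 to 8532, with col9a1a at 0 in every group. The part of these in the result was not tested.

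cldnc fell in the pax2 class under notum-1. The WT libraries read 800, 659, 703 and 688 scaled CPM and the notum-1 libraries 398, 146, 385 and 202, with no overlap (-1.31 ± 0.24, adjusted p 0.000548). Leaving out single libraries gave -1.08 to -1.50, all called, and the call was lost with the same cell limits for all libraries. DMH1 libraries, at 482, 496, 550 and 572, also lay below WT but did not pass (-0.44 ± 0.22, adjusted p 0.135). Over all cells cldnc went from 8.91, 9.34, 11.4 and 11.5 in WT to 4.53, 2.37, 5.28 and 1.88 in notum-1 (-1.54 ± 0.32, adjusted p 0.00177), a call kept in every alternative run.
The share of pax2 cells with a cldnc UMI at 2000 UMIs per cell was 29.8% in notum-1, from 15.4% to 41.4% over libraries, so that all notum-1 libraries lay below the WT range given above. Without thinning the shares were 45.7% and 79.0%, at median depths of 5052 and 3688 UMIs.
The other claudins of this class did not pass under notum-1. cldnb read 600, 289, 555 and 285 against 725, 717, 719 and 608 in WT (-0.66 ± 0.25, adjusted p 0.0614), and cldnh read 164, 59.4, 288 and 17.6 against 463, 390, 282 and 339 (-1.37 ± 0.51, adjusted p 0.0832). In all 3 genes WNT_MG2 and WNT_DJ2 were the lowest notum-1 libraries. The 6 pronephros markers summed in this class to 898 to 1102 in WT and 821 to 1291 in notum-1, with pax8 at 0 in both, and to 2804 to 3121 in DMH1 and 2203 to 2932 in SU5402. The sum can hide single markers. Of the 6, only cdh17 was counted by cell, so it does not stand for the others. It was found in 40.4% of WT cells with a cldnc UMI and 20.0% of those without, at 2000 UMIs per cell. In notum-1 these shares were 14.7% and 11.2%. The part of these markers in the fall of cldnc was not tested.
cldnd1b, the weak member of this class, read 22.0, 30.1, 17.3 and 29.0 with DMH1 on 120 UMIs. WT read 18.7, 9.62, 16.6 and 0 on 11 UMIs, a log2 difference of 1.39 ± 0.52. The groups overlapped, and leaving out single libraries gave 0.69 to 1.84. The highest libraries were of DMH1 (30.1, 29.0 and 22.0) and SU5402 (28.0), above the highest WT library at 18.7. Since the high groups helped bring the gene past the filter on low counts here, no test is given. The pronephros marker sums given above were higher in DMH1 too, and their part was not tested.

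In the remaining mesoderm, cldng fell under SU5402. In the lmo2 class it went from 305, 231, 244 and 247 scaled CPM to 147, 175, 140 and 228, with no overlap (-0.57 ± 0.20, adjusted p 0.0263). The call was lost without MG1, SU1, SU2 or SU3 (-0.43 to -0.74), without TMM factors, or with the same cell limits. Over all cells the WT libraries read 19.7, 14.4, 18.7 and 16.9 and the SU5402 libraries 12.9, 11.03, 10.2 and 13.9 (-0.54 ± 0.16, adjusted p 0.0122), a call lost without TMM factors (-0.30). Read after seeing the data, and not under the alternatives, the hand2 class gave -1.28 ± 0.23 (adjusted p 0.000186) and the intermediate mesoderm -1.09 ± 0.23 (adjusted p 0.000675). The 7 blood and endothelial markers in the lmo2 class summed to 10422 to 12204 in WT and 7005 to 9245 in SU5402, and their part in the fall was not tested.
cldn11b in the PSM read 43.4, 39.8, 44.9 and 42.3 scaled CPM in WT and 62.5, 55.3, 52.6 and 63.1 with SU5402. The groups did not overlap, and the log2 difference was 0.45 ± 0.13. Since treated libraries helped choose this class, no test is given. In the anterior adaxial cells, where WT was highest, its SU5402 change was -0.02 ± 0.19 (adjusted p 0.954). cldn12 did not pass in the posterior notochord either, at -0.32, 0.05 and -0.45 for DMH1, SU5402 and notum-1. Over all cells cldn11b fell under notum-1, from 32.0, 29.1, 29.7 and 29.7 to 23.2, 18.2, 19.8 and 23.9, again with no overlap (-0.50 ± 0.10, adjusted p 0.00144). In the PSM the notum-1 change of cldn11b was -0.15 ± 0.13, and the difference between these values was not tested.
cldn15a in the intermediate mesoderm read 19.3, 25.4, 8.67 and 30.7 scaled CPM with DMH1 against 2.15, 11.2, 5.18 and 4.11 in WT, a log2 difference of 2.01 ± 0.63 between groups that overlapped. Its notum-1 libraries were split, at 25.5, 2.01, 36.9 and 6.26. Since the high groups brought the gene past 10 CPM here, no test is given. The 6 pronephros markers summed in this class to 227 to 275 in WT and 434 to 474 in DMH1, with pax8 at 0 in both, and their part was not tested.

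cldnd1a was lower over all cells in DMH1, from 11.4, 12.0, 10.4 and 10.6 scaled CPM to 8.24, 8.88, 7.56 and 7.34 (-0.47 ± 0.11, adjusted p 0.00362), and also with SU5402, at 8.01, 8.77, 8.38 and 7.54 (-0.44 ± 0.12, adjusted p 0.00552). Neither group overlapped with WT, and both calls were lost without TMM factors, with the class makeup fixed and with the same cell limits. In differentiated neuronal cells DMH1 libraries read 35.9, 29.2, 30.5 and 31.3 against 49.3, 42.6, 53.6 and 45.3 (-0.58 ± 0.22, adjusted p 0.0476). That call was lost when any WT or DMH1 library was left out, and also without SU3, WNT_MG1 or WNT_DJ1 (-0.53 to -0.65), without the filter and by DESeq2.
The calls of higher claudins in all cells were of a pair of genes under 5 CPM, named after their values were seen. cldnd1b, at 0.362 ± 0.0955 scaled CPM in WT, rose by 1.53 ± 0.30 with DMH1 (adjusted p 0.000708), by 1.06 ± 0.31 with notum-1 (adjusted p 0.0132; lost without TMM factors) and by 0.82 ± 0.31 with SU5402 (adjusted p 0.0411), where libraries overlapped with WT. The SU5402 call was lost without MG1, MG2, DJ2, SU1, SU4, WNT_MG1 or any DMH1 library (0.59 to 0.98), without the filter, with the same cell limits, or with only WT and SU5402 in the fit. cldn15a rose by 0.74 ± 0.28 in DMH1 (adjusted p 0.0394), lost without any WT library, DMH0, DMH2, DMH4 or SU1 (0.57 to 0.90), when thinned and with the class makeup fixed at the WT shares, and turned to -0.15 with the same cell limits for all libraries.

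The EVL and mucus producing classes had too few cells for the main rule and were read with at least 5 cells per library, a choice made after seeing the data. In the EVL, 6 claudins were tested and edgeR called none under any treatment, where 18.4% (DMH1), 13.2% (SU5402) and 6.5% (notum-1) of all genes were called. At an unadjusted p under 0.05 there were 2, 3 and 3, and DESeq2 called none. cldni stood at 537, 537, 406 and 874 scaled CPM in WT and at 119, 153, 353 and 342 with SU5402, with no overlap (-1.39 ± 0.49, adjusted p 0.0721). It was called lower there without TMM factors, without the filter, when thinned and with only WT and SU5402 in the fit. Under notum-1 cldni was called lower without TMM factors, without the filter and when thinned, cldn7b when thinned, and cldn23a, cldnb and cldnf without TMM factors. Under DMH1 cldn23b, cldn7b and cldna were called higher without the filter, and cldn7b with only WT and DMH1 in the fit. cldne read 525, 1880, 1945 and 1726 scaled CPM in WT, 1884, 2005, 1849 and 1740 with DMH1 (0.30 ± 0.36), 1519, 1780, 1315 and 1515 with SU5402 (0.01 ± 0.36) and 271, 1540, 1897 and 1313 with notum-1 (-0.21 ± 0.36). The low values are from MG1 with 13 EVL cells and WNT_MG1 with 8. Without MG1, cldn23a was called lower in notum-1, where it read 90.2, 422, 491 and 229 against 159, 716, 651 and 709 in WT. Without MG2, cldn7b was called higher in DMH1, where it read 608, 592, 541 and 506 against 195, 627, 338 and 323.

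In sums over all cells, the EVL claudins varied widely between libraries, as did the share of EVL cells. That share was 0.187%, 0.0955%, 0.548% and 0.473% in the WT libraries, 0.715% to 1.03% with DMH1, 0.178% to 4.04% with SU5402 and 0.0904% to 1.26% in notum-1. cldne ran from 10.0 to 39.5 CPM in WT, 30.3 to 42.5 with DMH1, 5.10 to 139 with SU5402 and 1.04 to 13.6 with notum-1. The SU5402 library with 4.04% EVL cells was the one at 139 CPM, and that with 0.178% the one at 5.10 CPM. The notum-1 library with 1.26% EVL cells read only 9.96 CPM, below the WT library with 0.0955% at 10.5 CPM. EVL cells held 10.2% to 35.6% of the cldne UMIs of a WT library, 61.8% to 74.8% with DMH1, 50.2% to 66.6% with SU5402 and 18% to 80.1% with notum-1. Such shares and sums also depend on the depth of the EVL cells. Their median was 3802 UMIs in WT, 13205 with DMH1, 3736 with SU5402 and 2953 with notum-1. The all-cell changes of cldne, 0.45 ± 0.85, 0.91 ± 0.86 and -1.23 ± 0.87 in DMH1, SU5402 and notum-1, did not pass (adjusted p 0.693, 0.419 and 0.278). The EVL share in DMH1 lay above WT in 4 of 4 libraries, with the smallest two-sided exact permutation p that 4 against 4 allows, 0.0286, which became 0.171 after adjustment over 12 share tests. The epidermis 3 share under notum-1 was lower with the same p, at 3.12% ± 0.814 against 4.38% ± 0.529 in WT. The share of mucus producing cells under notum-1 was 1.06% ± 0.458 against 0.356% ± 0.210 (exact permutation p 0.0857). None of the 12 tests passed the adjustment. They covered only the 4 classes with the highest summed claudin level: mucus producing cells, epidermis 1, EVL and epidermis 3. Among classes not tested, the intermediate mesoderm made up 1.97% ± 0.0864 of notum-1 cells against 4.21% ± 0.580 in WT. The pax2 class made up 1.83% ± 0.227 of DMH1 cells against 0.766% ± 0.197 in WT. The part of any share in the claudin results was not tested.

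**Figure D4:**
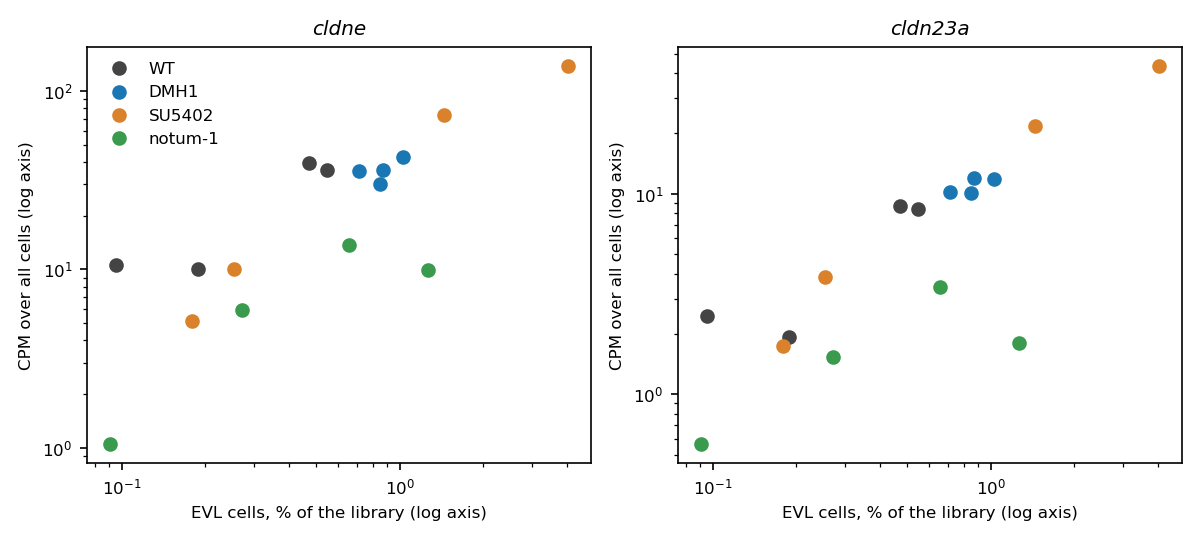
CPM of cldne and cldn23a over all cells against the share of EVL cells, 1 point per library, both axes on a log scale. Levels are highest, at 139 CPM for cldne, in the library with the largest EVL share, 4.04%, and the notum-1 library with 1.26% EVL cells lies below all DMH1 libraries.

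In the mucus producing cells 7 claudins were tested. DMH1 and SU5402 each called 1 higher and 1 lower and notum-1 called 2 lower, where 21.6%, 22.4% and 12.4% of all genes were called. Without TMM factors the splits were 0 higher and 2 lower, 1 and 2, and 0 and 6. cldni, the leading claudin of this class, stood at 2397 ± 232 scaled CPM in WT and 2388 ± 254 with DMH1 (-0.003 ± 0.26, adjusted p 0.994). It stood at 1523 ± 613 with SU5402 (-0.61 ± 0.27, adjusted p 0.0963) and 1446 ± 670 with notum-1 (-0.72 ± 0.26, adjusted p 0.0679). These last changes did not pass, and were called lower in some alternatives, such as when thinned. cldnb fell from 1470, 1574, 1587 and 1714 scaled CPM in WT to 1061, 971, 759 and 835 in DMH1 (-0.81 ± 0.20, adjusted p 0.00343) and to 838, 1303, 789 and 915 in SU5402 (-0.76 ± 0.20, adjusted p 0.00770), with no overlap. Both calls were kept with each library left out; the DMH1 call was lost without the filter and the SU5402 call when libraries were thinned. The notum-1 libraries, at 1217, 1152, 1446 and 1287, also lay wholly below WT but did not pass (-0.31 ± 0.19, adjusted p 0.308). Without TMM factors cldnb was called lower there too.
cldn7b rose in the same cells, from 316, 377, 368 and 402 to 545, 659, 643 and 544 in DMH1 (0.69 ± 0.20, adjusted p 0.0140) and to 646, 471, 668 and 602 in SU5402 (0.72 ± 0.21, adjusted p 0.0131). Neither group overlapped with WT. The DMH1 call was lost without MG1 or DJ1 (0.60 to 0.73) or TMM factors and when thinned, and the SU5402 call without MG1, DJ1, SU1 or SU3 (0.57 to 0.78). Both were lost without the filter.
Under notum-1, cldna read 54.9, 168, 88.0 and 189 against 126, 443, 601 and 314 (-1.64 ± 0.44, adjusted p 0.0210; lost without MG2, DJ1 or WNT_DJ1, -1.24 to -2.05). cldne read 58.1, 0, 55.7 and 67.8 against 111, 88.7, 119 and 141 (-1.20 ± 0.38, adjusted p 0.0358). That call was lost without any WT library, WNT_MG1, WNT_MG2 or the filter (-0.96 to -1.37). The fall of cldne was not particular to notum-1. DMH1 (-1.09 ± 0.40, adjusted p 0.0504) and SU5402 (-1.15 ± 0.46, adjusted p 0.0642) also lay wholly below WT but did not pass. Both were called lower in some alternatives, such as without TMM factors. The 9 EVL markers summed in this class to 4253 to 6342 in WT, 3919 to 8136 with DMH1, 3498 to 7423 with SU5402 and 1379 to 4845 with notum-1. The 6 ionocyte markers summed to 1587 to 1960, 1844 to 2031, 1637 to 2343 and 1879 to 2556, and the part of either list in the results was not tested.

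Genes that work with claudins were counted over all cells, with the main edgeR fit only. Their calls were not read under the alternatives or within classes. Of 35 other tight junction genes 32 were in the matrix and 30 were tested. DMH1 called 8 up and 2 down, SU5402 12 up and 3 down, and notum-1 3 up and 6 down, with median changes of 0.30, 0.44 and -0.38 beside the medians over all genes given above. These were 33.3%, 50% and 30% of the genes tested, where 42.4%, 42.6% and 38.1% of all genes were called. tjp1a, a scaffold that ties junction strands to actin, rose from 41.7 ± 3.14 scaled CPM to 121 ± 11.2 in DMH1 (1.53 ± 0.22, adjusted p 6.19e-05) and 91.1 ± 15.6 in SU5402 (1.12 ± 0.22, adjusted p 0.000634). Its paralog tjp1b rose from 43.3 ± 4.24 to 73.9 ± 3.54 (adjusted p 0.000692) and 89.3 ± 11.2 (adjusted p 4.76e-05). The polarity gene pard3ab rose with DMH1 (1.37 ± 0.24, adjusted p 0.000309) and with notum-1 (1.01 ± 0.24, adjusted p 0.00410). The scaffold gene magi1b rose in SU5402 (0.54 ± 0.10, adjusted p 0.000573) and fell in notum-1 (-0.74 ± 0.10, adjusted p 9.37e-05), where tjp2a fell as well (-0.66 ± 0.14, adjusted p 0.00224).
Of 12 adherens junction and desmosome genes 11 were tested, with 1 lower in DMH1, 3 higher in SU5402 and 4 lower in notum-1, or 9.09%, 27.3% and 36.4% beside the same shares of all genes. ctnnb1, which codes for beta-catenin, was at 721 ± 41.9 scaled CPM in WT, 482 ± 19.9 with DMH1 (adjusted p 0.00103) and 517 ± 78.9 with notum-1 (adjusted p 0.00527). ctnnd1 rose in SU5402 (0.58 ± 0.14, adjusted p 0.00395) and fell in notum-1 (-0.49 ± 0.14, adjusted p 0.0141).
Of 13 genes of the epithelial programme 12 were tested, with 2 higher in DMH1, 3 higher in SU5402, and 2 higher and 4 lower in notum-1, or 16.7%, 25% and 50%. grhl2b, which codes for an epithelial transcription factor, rose from 1.19 ± 0.184 to 7.18 ± 0.532 with DMH1 (adjusted p 0.000377), 4.24 ± 3.18 with SU5402 (adjusted p 0.00357) and 4.23 ± 2.40 with notum-1 (adjusted p 0.00580). The protease gene st14a fell in notum-1 from 21.2 ± 4.93 to 8.73 ± 3.24 (-1.28 ± 0.25, adjusted p 0.00113), as did klf17 (-0.68 ± 0.16, adjusted p 0.00328).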

How the data were processed

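The deposited matrix holds UMI counts per gene and cell, made with Cell Ranger on GRCz11 per the submitters' processing notes; no version is stated there. The deposited cell table gives each cell's library, class and filters, with mitochondrial reads in percent. Library names SU1 to SU4 match single samples; the other 12 give the group only, and the code WNT was taken as notum-1. UMIs were summed per library and class (Python 3.11.15, pandas 2.3.3) and tested with edgeR 4.0.16 (TMM, filterByExpr, robust quasi-likelihood), with adjustment over all genes tested. The fit of all cells took 16 libraries. A class fit took those with at least 20 cells of the class, or 5 for the EVL and mucus producing cells. Shares of the 4 classes with the highest summed claudin level were tested by exact two-sided permutation over libraries. Scripts were tested on simulated counts. Precision is limited by UMIs per class, which cover counting error only in the limits given for a count of 0.

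The authors' limits on cells differ between libraries; the same limits for all (at most 3% mitochondrial, at least 1500 genes) leave 33555 cells. Other alternatives were DESeq2 1.42.0, no TMM factors, no filter, class makeup fixed at WT shares (limma 3.58.1), thinning, other cell minimums and each library left out. WT and notum-1 libraries have name endings in common (MG1, MG2 and DJ1, DJ2); the labels do not say that these pair the samples. Members and lists were chosen with earlier results of these data known. Named were claudins at 10 CPM in a WT class (library values from 50 CPM) and those called with 5 CPM in 1 group, plus up to 3 called genes per other list and treatment. Reading the EVL and mucus producing cells at 5 cells, reading cldni, cldn7b and cldng in further classes, and choosing main classes from WT alone were decided after seeing the data. Of the matrix rows, 5 carry older names of claudins and are not members by the rule.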

Additional observations from a re-analysis of the deposited data

Results flagged for a closer look

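Among 119 groups of 4 library values of the called results, 2 held a library whose gap to the nearest other took up more of the group's range than Dixon's critical value for 4 values; chance gives such a gap in about 1 in 20 groups. For cldn7b in epidermis 4 under notum-1, the library WNT_DJ1 stood at 134.6 scaled CPM, below the others at 161.6 to 165.8. For cldni in epidermis 3 under DMH1, the library DMH4 stood at 2917 scaled CPM, above the others at 2426 to 2479.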

How the results depend on the processing

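Of 42 single results, 17 kept their call and direction in all alternatives run and 1 turned: cldn15a over all cells in DMH1, at -0.15 with the same cell limits. The 42 include cldn5b in the anterior notochord, cldn15a in the intermediate mesoderm, cldnd1b in the pax2 class and cldn11b in the PSM. The 17 include cldn5b in the anterior notochord under DMH1 and notum-1. No test is given for these, so their kept calls are no support. The number of claudins called over all cells was 5 (DMH1), 4 (SU5402) and 5 (notum-1). For DMH1 it was 3 with the class makeup fixed at the WT shares and 9 with only the DMH1 and WT libraries; for notum-1 it was 11 with the makeup fixed and 3 with the same cell limits. In the main classes it was 5, 6 and 2. For DMH1 it was 3 by DESeq2, 3 when thinned, 9 with only the DMH1 and WT libraries, 2 with the same cell limits and 3 with main classes chosen from WT alone; for SU5402 it was 1 with the same cell limits; for notum-1 it was 6 by DESeq2, 9 without TMM factors, 1 with the same cell limits and 1 with main classes chosen from WT alone. The fixed makeup uses limma without TMM factors and tests 18 claudins, and the same cell limits leave fewer cells and fewer claudins tested. The cause of the other shifts was not tested. Leaving out single libraries gave 3 to 7, 3 to 6 and 4 to 6 calls over all cells, and 2 to 7, 3 to 8 and 2 to 4 in the main classes. Libraries whose loss moved a count by over 1.5 times were DMH0, DMH4 and DJ2 for DMH1 over all cells; DMH0, DMH2, DMH4 and every WT library for DMH1, SU2 for SU5402, and WNT_DJ1 and WNT_DJ2 for notum-1 in the main classes. WT and notum-1 libraries with the same ending had correlations of deviations of -0.24, 0.42, 0.40 and 0.098, and they were not taken as paired. Those with unlike endings ran from -0.36 to 0.29, so 0.42 and 0.40 lay above all of them. That check covers exact endings only, and a grouping by the name parts MG and DJ was not tested. With the replicate block on those endings notum-1 called 8 claudins over all cells and 4 in the main classes. Depth limits the EVL, polster and Kupffer's vesicle values most, with 123, 9 and 40 WT cells.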

Other observations

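cldna, a claudin of the mucus producing cells and epidermis, had 0 UMIs in the WT EVL class, 34 of 3517970 in DMH1, 13 of 1580480 in SU5402 and 1 of 713786 in notum-1. Taken over each group, DMH1 stood at 9.66 CPM and SU5402 at 8.23 CPM, or 1.77 and 1.51 times the 5.46 CPM that 3 counts would give in WT. These ratios include neither the counting error of the treated groups nor the spread between libraries, so they are not lower limits. cldna failed the filter on low counts in this class; without the filter it was called higher in DMH1. In the pax2 class, cdh17, a cadherin of the pronephros, was found in 40.4% of WT cells with a cldnc UMI and 20.0% of those without, and in notum-1 in 14.7% of 68 and 11.2% of 160, at 2000 UMIs per cell. The other pronephros markers were not counted by cell, and the sum of all of them in notum-1 overlapped with WT.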
